A study of Mus musculus with 8 samples.

Results

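The glucose, lactate and inositol transporters of the mouse oviduct were examined after neonatal exposure to the phytoestrogen genistein (Gen). The members were the noncontrol array probes whose gene name starts with Slc2a, Slc5a or Slc16a followed by a number. They came to 59 of 41174 probes, or 38 of 27962 gene names: 11 Slc2a, 13 Slc5a and 14 Slc16a genes. Controls were CD-1 mice given corn oil subcutaneously on PND1–PND5, and Gen-treated mice received Gen at 50 mg/kg/day in the same oil on the same days. At 6–8 weeks of age every mouse was superovulated and mated, and the oviducts were taken on GD2 (48 hr after hCG) once the embryos had been removed. Each group had 4 independent biological replicates, each measured on 1 Agilent whole mouse genome array. How many mice made up a replicate on the arrays was not stated in the sources used here. The design compares what the adult oviduct expresses in early pregnancy with and without the neonatal exposure.

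The oviduct fluid feeds the cleaving embryo. Early embryos take up pyruvate and lactate first and come to use glucose later, and these small molecules reach the fluid through carriers in the oviduct lining. Slc2a genes encode GLUT proteins, which let sugars move down their gradient. Slc5a genes encode carriers that couple sugars, inositol, vitamins and small acids to sodium. Slc16a genes encode monocarboxylate carriers, of which a few move lactate and pyruvate with a proton and others move amino acids or creatine. Whole oviducts were used, so fewer cells of a type and less RNA per cell cannot be told apart.

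Of the 38 genes, 30 had a probe well above background on at least 4 of the 8 arrays and were tested (10 Slc2a, 8 Slc5a and 12 Slc16a), and for 27 the probe was well above background on all 8. Slc16a14 and Slc5a12 were not well above background on any array. Levels are scaled signals, linear intensities after the 75th percentile of every array was set to a common level, and group levels are means taken on the log2 scale. A level is compared between arrays for the same probe and not between genes. All log2 fold changes are Gen minus control, with the standard error (SE) from limma, and p-values are two-sided and from limma unless another test is named.

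Slc5a11, a sodium-coupled inositol carrier, and Slc2a3, a glucose carrier, had a lower signal in Gen-treated mice at an unadjusted p of 0.01, and Slc16a12, a creatine carrier, and Slc16a10, an amino acid carrier, a higher one. Slc5a4b was also higher at that p, but none of its control arrays read well above background, so only a bound is given for it. None of the 30 genes passed an adjusted p of 0.05 (limma, Benjamini-Hochberg over all 29552 probes tested), where 201 of 19791 gene names (1.02%) did. At the unadjusted p of 0.01 that the study used, 5 of 30 genes (16.7%) passed, 3 higher and 2 lower in Gen-treated mice. Over all gene names 7.45% passed it, 4.15% higher and 3.3% lower. At an unadjusted p of 0.05 the members numbered 11, with 5 higher and 6 lower, beside 19.4% of all gene names, 11.1% higher and 8.32% lower. By the methods' t-test 0 members passed the adjusted threshold, 2 an unadjusted p of 0.01 (6.14% of all gene names) and 9 an unadjusted p of 0.05 (18.1%). The 4 control arrays and the 4 Gen arrays did not overlap for 8 of the 30 genes (26.7%), against 12.4% of all gene names. Slc5a4b is in both counts and entered the test through its Gen arrays alone. Without genes that entered through 1 group alone, 4 of 29 members passed an unadjusted p of 0.01 and 7 of 29 had groups apart, beside 6.95% and 12.0% of 19448 gene names. The median log2 fold change was 0.02 over the 30 genes and 0.03 over all gene names, and the median absolute value was 0.32 and 0.19. The counts describe the members and were not tested as a set.

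When probes that were dim everywhere were tested as well, 7 of the 38 member genes passed the adjusted threshold, beside 17.3% of all gene names. Those 7 were the 5 genes at an unadjusted p of 0.01 above, Slc2a2 (1.02) and Slc16a14 (−1.27), the last never well above background. In that test 5123 of the 7909 probes never well above background had an unadjusted p under 0.01, and all of them were lower on the Gen arrays. All controls shared 1 slide and all Gen-treated mice a second one, and the effects of slide and treatment cannot be told apart.

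**Figure D1:**
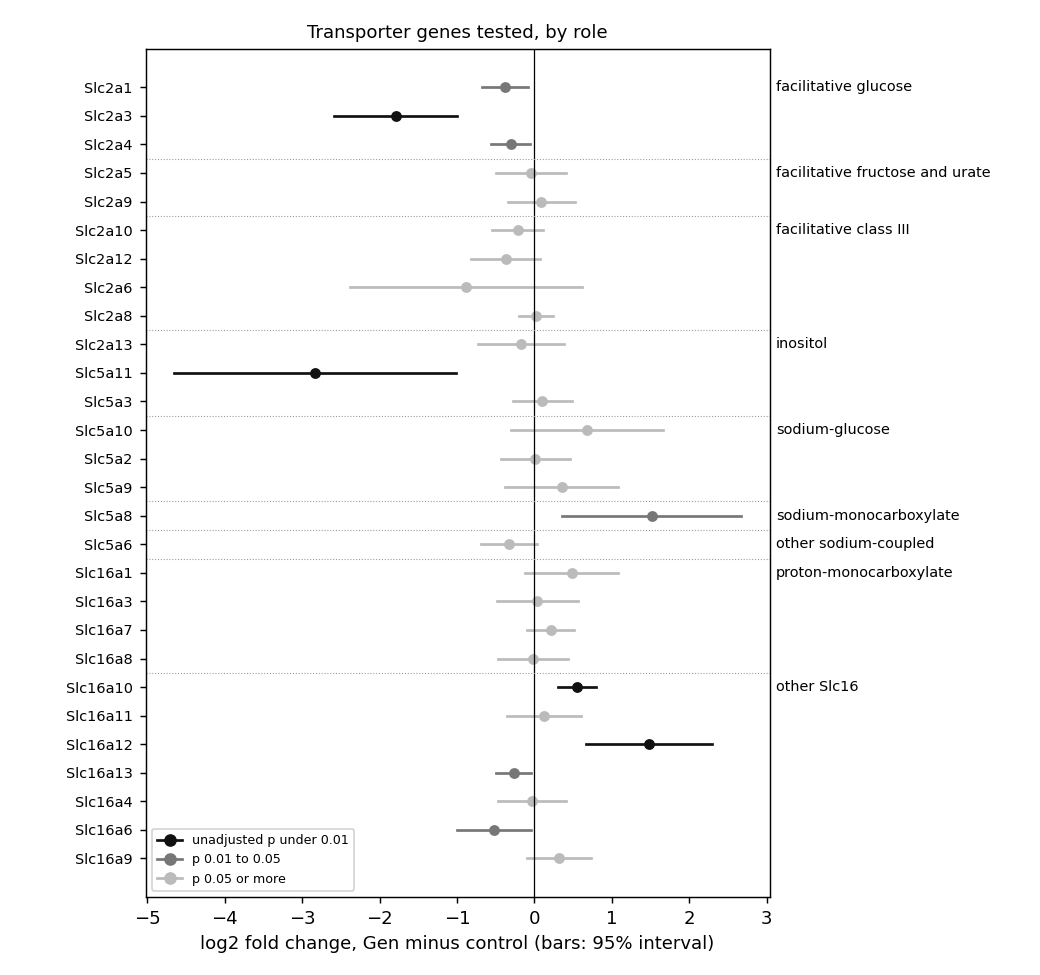
Log2 fold change (Gen minus control, horizontal axis) of 28 of the 30 transporter genes tested, grouped by role, without Slc5a4b, which has only a bound; points are limma estimates, bars are 95% intervals, and the shade gives the unadjusted p. Slc5a11 and Slc2a3 lie farthest to the left, at −2.84 and −1.79, and Slc5a8 and Slc16a12 farthest to the right, at 1.51 and 1.48, of which Slc5a8 was well above background on 1 control array.

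The arrays read each transcript through probes of 60 bases, and a level refers to the stretch that its probe covers. The first 30 bases are shown for the 5 genes at an unadjusted p under 0.01, to show which stretch each result rests on. They are written 5′ to 3′ as deposited with the array design, whose positions are on mm7 (NCBI build 35). Exon annotation on that build was not used here. The Slc5a11 probe lay at chr7:119375760-119375819 (+), the Slc2a3 probe at chr6:122764878-122764937 (−), the Slc16a10 probe at chr10:39823852-39823911 (−) and the Slc16a12 probe at chr19:34370453-34370512 (−). The Slc5a4b probe was placed at chr10:75714534-75716043 (−), where its 60 bases spread over 1510 positions.
Slc5a11: aacctgtcatagtttccttggaggaaaatc
Slc2a3: gtgcttacacatttcagaccctttaggcaa
Slc16a10: gccaacctaaaccttgagtctgttaaatga
Slc16a12: gctttcataacgagactctggcttgatccg
Slc5a4b: agaattggaaactcaagaagaagctggtgg
The longest run of bases that probes of different member genes shared was 12, between Slc16a7 and Slc5a6, and none of the 5 probes above shared more than 9.

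Of the 4 facilitative glucose carriers on the array, Slc2a1, Slc2a3 and Slc2a4 were tested. Their control and Gen arrays did not overlap, and of these only Slc2a3 was lower at an unadjusted p of 0.01. Slc2a3 encodes GLUT3, the high-affinity carrier best known from neurons and from the embryo itself. Its signal was 16448, 27666, 21031 and 20840 on the control arrays and 10093, 3243, 8240 and 5125 on the Gen arrays. Every Gen array lay below every control array, with Gen replicate 2 the lowest. The level was 3.47-fold lower in Gen-treated mice (log2 fold change −1.79, SE 0.35, adjusted p = 0.059). Leaving out any array in turn kept it between −2.04 and −1.49 and under an unadjusted p of 0.01. The other 2 Slc2a3 probes, at chr17:81748170-81748230 and chr6:122774576-122774635, were not well above background on any array, so the result rests on 1 probe.

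Slc2a1 encodes GLUT1, the carrier of basal glucose uptake and of glucose passage across many epithelia. Its signal was 29731, 34932, 27391 and 32716 in controls and 26259, 19789, 26346 and 23671 in Gen-treated mice. The highest Gen array was just below the lowest control array, and the level was 1.3-fold lower (−0.38, SE 0.13, adjusted p = 0.18). Slc2a4 encodes GLUT4, the insulin-regulated carrier of muscle and fat. Its signal was 16764, 18849, 20604 and 18020 in controls and 13116, 15671, 15034 and 16257 in Gen-treated mice, with the groups again apart by a narrow gap. The level was 1.24-fold lower (−0.31, SE 0.11, adjusted p = 0.19).
Leaving out the scaling moved the 3 GLUT genes by the same amount, so what remained followed from the size of each difference. Without scaling, when the median log2 fold change of all gene names was 0.27, the values were −1.55 for Slc2a3, −0.14 for Slc2a1 and −0.07 for Slc2a4, and the adjusted p was 0.85 for Slc2a1 and 0.93 for Slc2a4. Slc2a2, the GLUT2 gene of liver and pancreatic islets, was not well above background on any control array, and its probes were so on 3 and 2 Gen arrays. It was not tested.

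**Figure D2:**
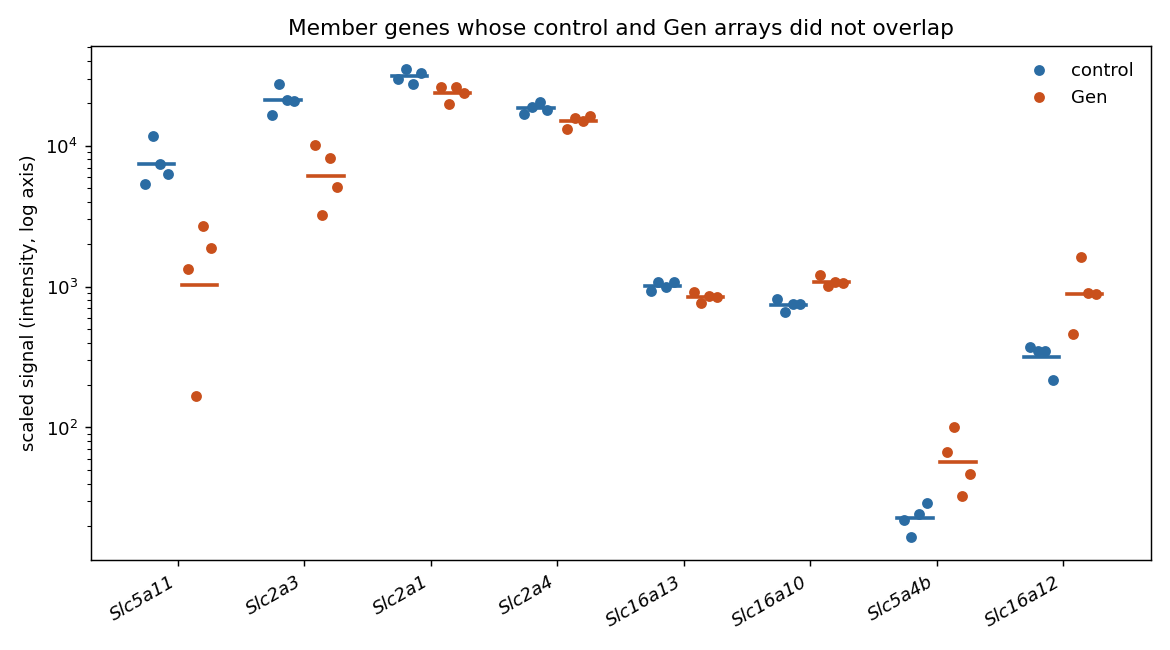
Scaled signal (log axis) of the 8 transporter genes whose groups did not overlap; each point is 1 array, blue for control and orange for Gen, and bars are group means on the log2 scale. For Slc5a11 the Gen arrays spread from 168 to 2698 below control arrays of 5335 to 11831, while the gaps for Slc2a1, Slc2a4 and Slc16a13 are narrow.

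The other GLUT genes did not pass an unadjusted p of 0.05. Slc2a8 encodes GLUT8, an intracellular carrier that has been studied in preimplantation embryos. Its signal was 3083, 3162, 3112 and 3379 in controls and 3412, 3543, 3040 and 2957 in Gen-treated mice. The groups overlapped throughout, and the log2 fold change was 0.02 (95% interval −0.20 to 0.24). Slc2a12 (GLUT12) had a log2 fold change of −0.37 (interval −0.82 to 0.07) and Slc2a10 (GLUT10) one of −0.22 (interval −0.55 to 0.11). Slc2a6 read −0.88 with an interval of −2.38 to 0.62. That width came with 1 array: control replicate 3 read 1613, where the other controls lay between 174 and 270 and the Gen arrays between 145 and 335, and without it the log2 fold change was −0.18. The fructose carrier Slc2a5 (−0.04) and the urate carrier Slc2a9 (0.09) had overlapping groups.

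Inositol is taken up as a precursor of phospholipids and as an osmolyte, by 2 sodium-coupled carriers, Slc5a3 and Slc5a11, and by the proton-coupled Slc2a13. Of these only Slc5a11 was lower at an unadjusted p of 0.01, and its difference was the largest of the 30 genes. The signal of Slc5a11 was 5335, 11831, 7428 and 6316 in controls and 1342, 168, 2698 and 1871 in Gen-treated mice. All Gen arrays lay below all controls, and Gen replicate 2 lay far below the other 3. The level was 7.14-fold lower (log2 fold change −2.84, SE 0.79, adjusted p = 0.12). Without Gen replicate 2 the log2 fold change was −1.96, a smaller difference with a smaller adjusted p of 0.068. Leaving out Gen replicate 1 or any 1 of the controls raised the unadjusted p above 0.01, with the direction kept.

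Slc5a3 (SMIT1), the carrier that cells raise under osmotic stress, was dim on this array. Its signal was 84.1, 55.2, 72.1 and 86.2 in controls and 71.0, 69.8, 84.7 and 91.5 in Gen-treated mice, with a log2 fold change of 0.10 (interval −0.28 to 0.49). A probe whose design name, BF642829, is a synonym of Slc5a3 in RefSeq tables of GRCm38.p6 read −0.21 with an unadjusted p above 0.05. That match was by name only, and the position of the probe was not checked. Slc2a13 (HMIT) read 459, 322, 390 and 492 in controls and 270, 350, 321 and 578 in Gen-treated mice. Of the Gen arrays 3 lay within or below the control range and 1 above it, and the log2 fold change was −0.17 (interval −0.73 to 0.39). The difference between Slc5a11 and the other inositol carriers was not itself tested.

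Among the sodium-coupled glucose carriers the main carriers of gut and kidney were dim or at background. Slc5a1 (SGLT1), which takes up glucose across the gut lining, read 9.6, 23.5, 34.9 and 17.2 in controls and 7.6, 13.9, 24.0 and 7.8 in Gen-treated mice, and was well above background on 1 Gen array and no control array. It was not tested. Slc5a2 (SGLT2), the main glucose carrier of the kidney tubule, was dim but detected, with 54.0 to 95.6 in controls and 62.5 to 92.5 in Gen-treated mice. Its log2 fold change was 0.01 (interval −0.44 to 0.46). Slc5a9 (0.35, interval −0.38 to 1.08) and Slc5a10 (0.68, interval −0.30 to 1.66) carry mannose, fructose and related sugars, and their groups overlapped. One Gen array of Slc5a10 read 1300, where the other 7 arrays lay between 263 and 503.

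Slc5a4b, a relative of the glucose sensor SGLT3, was higher in Gen-treated mice at low signal. It read 22.1, 16.7, 24.2 and 29.1 in controls and 66.9, 101, 32.4 and 46.7 in Gen-treated mice. It was well above background on all 4 Gen arrays and no control array, so only a bound is given. By that bound Slc5a4b was at least 1.41-fold higher in Gen-treated mice, or 1.16-fold in the lowest case with 1 array left out. The probe entered the limma test through its Gen arrays alone. The adjusted p of 0.11 belongs to that test and not to the bound. The bound sets the mean of the Gen arrays against, on each control array, the dimmest probe still well above background or, where higher, the signal of Slc5a4b itself. That dimmest probe lay between 28.5 and 65.9 on the control arrays and between 14.5 and 20.9 on the Gen arrays. In the limma test Slc5a4b did not pass an unadjusted p of 0.01 with normexp background correction (adjusted p = 0.52) or with low signals raised to a floor (adjusted p = 0.61). Another Slc5a4b probe read 0.36 (adjusted p = 0.86), and the remaining one was not tested. Its neighbour Slc5a4a read 8.9, 7.5, 14.4 and 6.3 in controls and 48.8, 95.6, 25.7 and 9.8 in Gen-treated mice, and was well above background on 3 Gen arrays. Slc5a4a was not tested, and no fold is given because its bound was under 1.

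The proton-coupled lactate and pyruvate carriers MCT1 to MCT4 did not separate the groups. Slc16a1, Slc16a3, Slc16a7 and Slc16a8 encode MCT1, MCT4, MCT2 and MCT3, and 0 of the 4 passed an unadjusted p of 0.05. Slc16a1 (MCT1), found in most tissues, read 11407, 6462, 7783 and 9628 in controls and 14148, 9131, 9255 and 17471 in Gen-treated mice. The Gen arrays were on the whole higher and the ranges overlapped, with a log2 fold change of 0.48 (interval −0.12 to 1.08, adjusted p = 0.36). Its other 2 probes read 0.39 (adjusted p = 0.36) and 0.10 (adjusted p = 0.86). Slc16a3 (MCT4), known for lactate export from glycolytic cells, read 11337, 7739, 6913 and 7639 in controls and 6797, 7539, 7872 and 12656 in Gen-treated mice. One array of each group stood above the rest, and the log2 fold change was 0.03 (interval −0.49 to 0.56).

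Slc16a7 (MCT2), a high-affinity pyruvate and lactate carrier, read 1154, 1161, 1057 and 987 in controls and 1182, 1033, 1436 and 1422 in Gen-treated mice (0.21, interval −0.10 to 0.51). A probe named 9030411M13Rik by the design, a synonym of Slc16a7 in the RefSeq tables, read −0.81 with an unadjusted p above 0.05. It too was matched by name only. Slc16a8 (MCT3), a carrier of the retinal pigment epithelium, was dim, between 82.5 and 129 in controls and between 83.8 and 132 in Gen-treated mice. The sodium-coupled monocarboxylate carrier Slc5a8 (SMCT1) read 98.6, 26.3, 45.4 and 17.6 in controls and 69.3, 140, 137 and 104 in Gen-treated mice. It was well above background on 1 control array and all 4 Gen arrays, and 3 of the 4 Gen arrays lay above every control. The log2 fold change was 1.51 (SE 0.51, adjusted p = 0.17), but it was 0.37 (adjusted p = 0.32) with normexp background correction and 0.57 (adjusted p = 0.31) with the floor. The related Slc5a12 (SMCT2) was not well above background on any array.

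**Figure D3:**
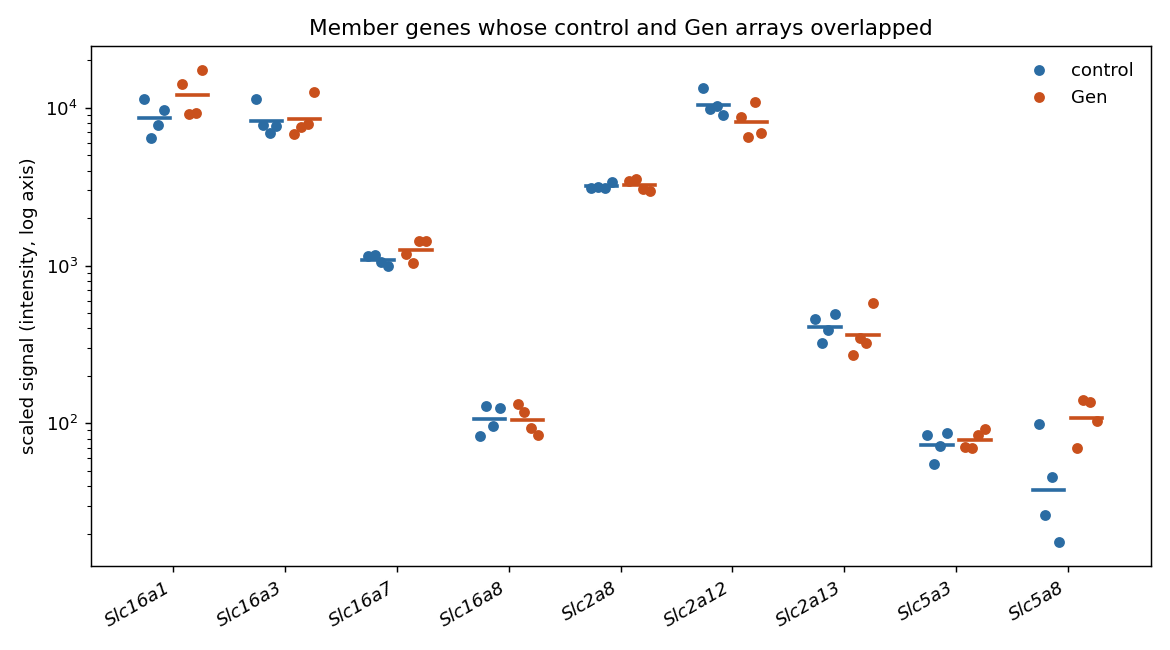
Scaled signal (log axis) of 9 transporter genes whose groups overlapped, with 1 point per array, blue for control and orange for Gen, and bars for group means on the log2 scale. The lactate carriers Slc16a1, Slc16a3, Slc16a7 and Slc16a8 share much of their range between the groups, and the 3 upper Gen arrays of Slc5a8 lie above its controls.

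Of the 10 Slc16a genes other than those of MCT1 to MCT4, 8 were tested, and at an unadjusted p of 0.01 there were 2 higher and 0 lower. Slc16a10 (TAT1), a carrier of aromatic amino acids, read 818, 665, 749 and 747 in controls and 1213, 1005, 1086 and 1054 in Gen-treated mice. The spread within each group was small and the groups were apart, with a level 1.46-fold higher (0.55, SE 0.11, adjusted p = 0.058). Leaving out any 1 array kept its unadjusted p under 0.01, but without scaling it no longer passed that threshold (adjusted p = 0.17). The probe used was not matched to a RefSeq transcript by accession, and its 2 other probes were. Of these 2, 1 gave 0.13 (adjusted p = 0.69). The other was well above background on all Gen arrays and no control array, with no fold given because its bound was under 1. Slc16a12, a creatine carrier, read 373, 350, 349 and 217 in controls and 464, 1625, 895 and 886 in Gen-treated mice. All Gen arrays lay above all controls, with Gen replicate 2 the highest and Gen replicate 1 nearest to the controls. The level was 2.79-fold higher (1.48, SE 0.36, adjusted p = 0.093), and with 1 array left out the log2 fold change lay between 1.19 and 1.79 and the unadjusted p stayed under 0.01.

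Slc16a13 read 924, 1074, 995 and 1081 in controls and 909, 771, 863 and 847 in Gen-treated mice. The groups were just apart, and the level was 1.2-fold lower (−0.27, SE 0.10, adjusted p = 0.21). Without scaling the log2 fold change was −0.02 (adjusted p = 0.97). Slc16a11 lies beside Slc16a13 on chromosome 11, with its probe at chr11:70297905-70297964 against chr11:70298722-70298781, and read 0.12 (adjusted p = 0.77). Slc16a6 (MCT7) was lower at its brighter probe (−0.53, SE 0.21, adjusted p = 0.23), where controls lay between 9360 and 11747 and Gen arrays between 4686 and 9392. Its other probe gave 0.65 (adjusted p = 0.59), the opposite sign.
Slc16a9 read 0.32 (interval −0.10 to 0.73) and Slc16a4 −0.03 at both of its probes. Slc16a5 was well above background on 2 Gen arrays and was not tested. Outside the families' sugar and acid carriers, the vitamin carrier Slc5a6 read −0.33 (interval −0.68 to 0.03). The iodide carrier Slc5a5 and the choline carrier Slc5a7 were well above background on 2 and 1 Gen arrays and no control array, and neither was tested.

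**Figure D4:**
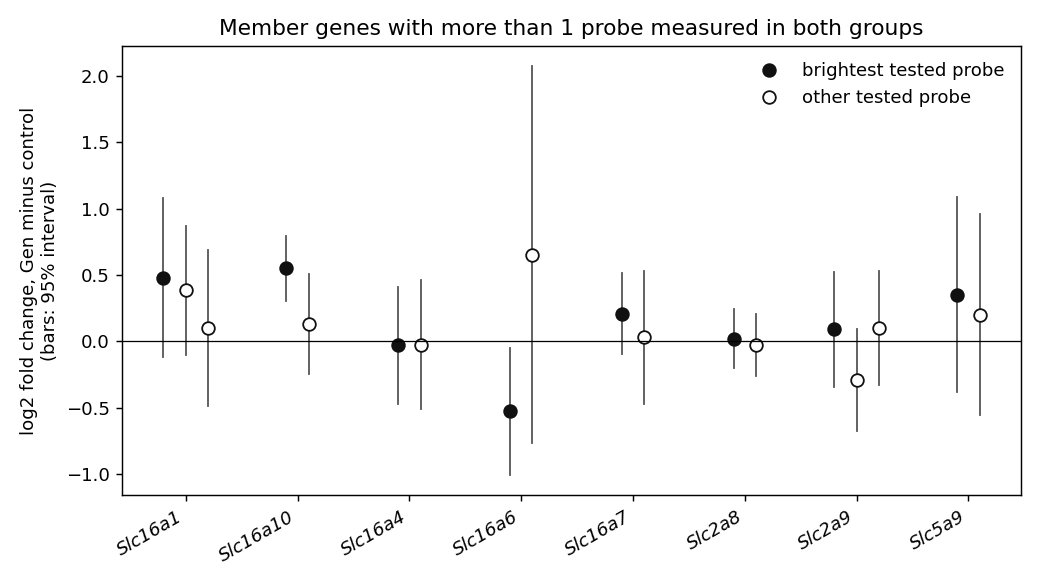
Log2 fold change (Gen minus control, vertical axis) at each tested probe of the 8 transporter genes with more than 1 probe well above background in both groups, with 95% intervals; filled points are the probes used for the gene. Of the 10 other probes 7 have the sign of the filled one, and Slc16a6 shows the widest split, −0.53 against 0.65.

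The arrays of Gen-treated mice also differed in markers of some other cells. Summed over 7 listed genes, the signal of ovarian steroid-making cells was 5378, 3324, 28170 and 3232 in controls and 140400, 130000, 31750 and 46310 in Gen-treated mice. Of its 6 tested genes 4 passed an unadjusted p of 0.01, all higher, beside 4.15% of all gene names. Their median log2 fold change was 2.85. The sum over 6 oocyte and embryo genes was 4884, 500, 3999 and 460 in controls and 9410, 30130, 5399 and 4757 in Gen-treated mice, and the median log2 fold change of the list was 2.62. These sums overlapped. Of the 6 genes 0 passed an unadjusted p of 0.01 and 5 passed 0.05 by limma, beside 19.4% of all gene names at 0.05. Gen replicate 2 had the highest oocyte and embryo sum, and it also had the highest signal of Slc16a12, Slc5a4a, Slc5a4b and Slc5a7 and the lowest of Slc2a3 and Slc5a11. At the probes used for the genes, this array was highest for Slc2a8 and Slc5a8 too. It was also lowest for Slc2a1, Slc2a12, Slc5a6, Slc16a4, Slc16a6 and Slc16a13. B cell and plasma cell genes summed to 13280 to 30760 in controls and 47160 to 68610 in Gen-treated mice. Macrophage (0.43), T cell (0.44), erythroid (0.63) and stratified squamous (0.42) lists had median log2 fold changes above 0, with Krt6a and Dsg3 among the genes never well above background. The summed signal of each of these lists overlapped between the groups. In that order 1 of 6, 1 of 5, 0 of 4 and 0 of 3 tested genes were higher at an unadjusted p of 0.01, beside 4.15% of all gene names. None of the 3 squamous genes passed an unadjusted p of 0.05 by limma.
The oviduct's own lists had medians below 0. The median log2 fold change was −0.02 for 8 genes of ciliated epithelium, of which 0 passed an unadjusted p of 0.05. It was −0.45 for 4 of secretory epithelium, of which 1, Wnt7a, was lower at an unadjusted p of 0.01. Of these 4 genes 3 were below 0 and 1 above. Their summed signal overlapped, with 465200 to 603600 in controls and 413300 to 656100 in Gen-treated mice. For 6 genes of smooth muscle the median was −0.26, with all 6 below 0. Of these 0 passed an unadjusted p of 0.01 and 2 passed 0.05 by limma. The sums of the ciliated and smooth muscle lists overlapped between the groups as well. Fat cell genes, relevant to Slc2a4, had a median of −0.21, with Lep never well above background. Of the 4 tested, 3 were below 0 and 1 above, and 0 passed an unadjusted p of 0.05 by limma. Their summed signal overlapped, with 24520 to 65870 in controls and 12810 to 58840 in Gen-treated mice. The part of these cells in the transporter results was not tested. Without Gen replicate 2 the log2 fold change was −1.49 for Slc2a3, −1.96 for Slc5a11, 1.19 for Slc16a12 and 0.59 for Slc16a10. Without control replicate 3, the control with the highest sum for steroid-making cells, it was −1.80, −2.83, 1.53 and 0.55.

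Genes that use or make the carried fuels were examined from a list of 50, of which 49 were tested. None passed an adjusted p of 0.05 by limma or by the methods' t-test, and 16 passed an unadjusted p of 0.05 by limma and 15 by the t-test, beside 19.4% and 18.1% of all gene names. At an unadjusted p of 0.01, 1 was higher and 8 were lower in Gen-treated mice, beside 4.15% higher and 3.3% lower of all gene names. By sign alone 34 of the 49 were lower and 15 higher, with a median log2 fold change of −0.12 beside 0.03 for all gene names. The lower genes at that p included Pfkfb3, which makes an activator of glycolysis (−0.93, adjusted p = 0.076), the glycolytic enzymes Pgk1 (−0.46, adjusted p = 0.11) and Pkm (−0.44, adjusted p = 0.080), the mitochondrial pyruvate carrier subunit Mpc2 (−0.39, adjusted p = 0.095), the pyruvate dehydrogenase kinase Pdk3 (−0.36, adjusted p = 0.13), pyruvate carboxylase Pcx (−0.88, adjusted p = 0.091) and the glycogen branching enzyme Gbe1 (−0.77, adjusted p = 0.11). The kinase Pdk1 was higher (0.36, adjusted p = 0.13). For each of the genes named here the control and Gen arrays did not overlap, as for 12.4% of all gene names. These genes were named for their p on the same arrays, so the lack of overlap adds no separate support.

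Without scaling, where the median of all gene names was 0.27, 1 gene of the list passed an unadjusted p of 0.01. The general hexokinases Hk1 (−0.13) and Hk2 (0.04) and the lactate dehydrogenases Ldha (0.00) and Ldhb (−0.17) had unadjusted p-values above 0.05 at their brightest probes. Hk1 read 0.11 and Ldhb 0.07 without scaling, and Hk2 and Ldha changed sign under 1 or more of the alternatives. Over the alternatives that kept every array, Ldha lay between −0.24 and 0.24, with a lowest unadjusted p of 0.014 by limma. The −0.24 came with the mean of all its tested probes. Basigin (Bsg) and embigin (Emb) are chaperones that bring monocarboxylate carriers to the cell surface, basigin for MCT1 and MCT4 and embigin for MCT2. Bsg read 0.13 (interval −0.18 to 0.45) and −0.01 with normexp background correction. Emb was 1.66-fold lower (−0.73, SE 0.27, adjusted p = 0.20) with overlapping groups. Of the inositol and polyol genes, Miox, the enzyme that breaks down inositol, was 3-fold higher (1.58, SE 0.53, adjusted p = 0.17). Its groups were apart by a narrow gap. Miox read 275, 125, 255 and 108 in controls and 689, 1266, 284 and 309 in Gen-treated mice, with Gen replicate 2 the highest. Isyna1, which makes inositol phosphate from glucose phosphate, read −0.05 (interval −0.36 to 0.27).

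**Figure D5:**
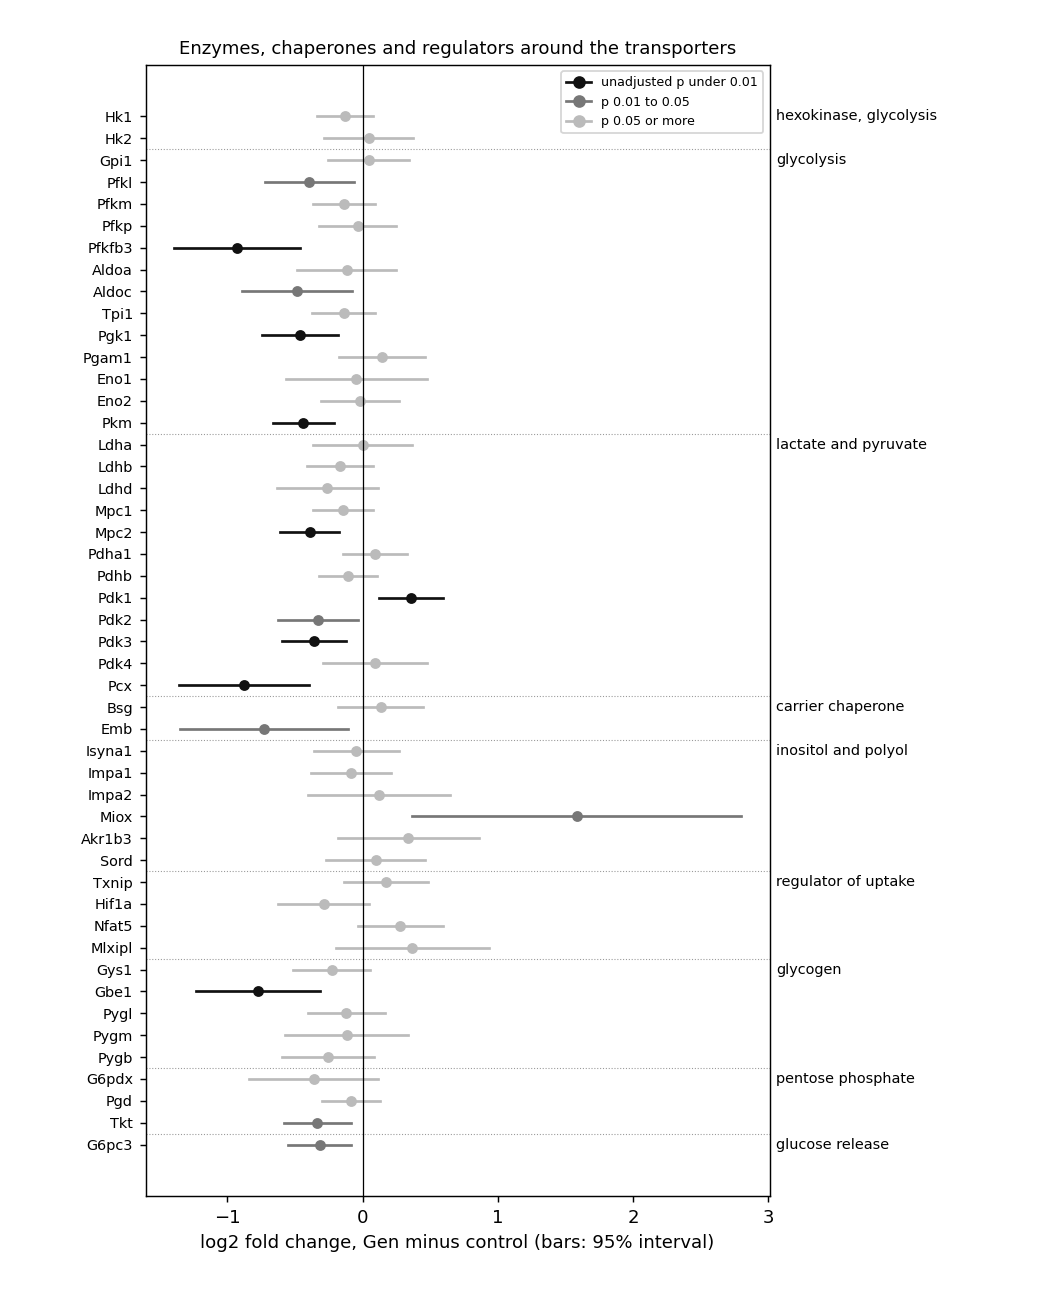
Log2 fold change (Gen minus control, horizontal axis) of 48 of the 49 tested genes of glycolysis, lactate, pyruvate, inositol, glycogen and their regulation, grouped by role, with limma 95% intervals and shades for the unadjusted p. Of the 8 genes shown at an unadjusted p under 0.01, Pdk1 lies to the right of 0 and the other 7 to the left, and Miox is the farthest to the right at 1.58.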

How the data were processed

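The authors deposited, for each array, the output of Agilent Feature Extraction 9.5, whose processed signal is a linear intensity, background-adjusted and detrended for each array on its own and not scaled across arrays. The series table repeats this intensity at each of the 45018 spots. Rosetta Resolver, which the methods name next, was not run. Here outlier spots were dropped, the log2 signals of a probe were averaged, and the 75th percentile of each array was set to a common level. Probes well above background on at least 4 of 8 arrays, whichever group, were tested with lmFit and eBayes of limma 3.58.1 (R 4.3.3, data.table version 1.17.8; plots by matplotlib 3.10.9), where the study filtered dim probes after its test. Adjustment was by Benjamini-Hochberg over 29552 probes, and calls used an adjusted p of 0.05 or the study's unadjusted p of 0.01. A gene was represented by its brightest tested probe by mean log2 signal.

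Probes well above background numbered 25359–28934 on control and 29527–31481 on Gen arrays, and the 75th percentile before scaling was 1908–2432 and 2149–3772. The number of arrays limits the precision, and no probe of the members was saturated. Of the 59 member probes, 50 were matched by accession to the RefSeq tables of GRCm38.p6 and carry the same symbol there. The others kept the name of the array design, so their agreement was fixed in advance. The probe used for Slc16a10 is among those others. The listed gene Gapdh was not matched to a probe, and neither was the oocyte marker Zp1.

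Members, lists and tests were chosen with earlier results of these data known. Every member but 1 is named; results of that gene, 1 fuel gene and 1 marker count in the totals and are otherwise not reported here; array values are given for members at an unadjusted p under 0.01, with groups apart or with only a bound, and for the main glucose, lactate and inositol carriers; of the fuel genes, those at that p (but for the gene just mentioned) with Hk1, Hk2, Ldha, Ldhb, Bsg and Emb. Values of Slc2a2, Slc16a5, Slc5a5 and Slc5a7 are given by detection, and Slc5a4a, Slc5a8, Miox and Isyna1 were described after their values were seen. The fit was checked on data simulated from 29502 probes, with 50 probes changed at each of 4 fold sizes. The alternatives were no filter on dim probes, a stricter filter, quantile normalization, no scaling, normexp (offset 50), a floor, outlier spots kept, a robust fit with a trend, the series table, the methods' t-test, the mean of a gene's probes, a block for replicate number, and each array left out.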

Additional observations from a re-analysis of the deposited data

Results flagged for a closer look

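Each group of 4 arrays was tested for an array far from the other 3, in 60 groups over the 30 transporter genes, and 4 stood out by Dixon's criterion at its 95% level. Chance flags about 1 in 20 groups. Gaps and ranges were taken on the log2 scale, and the signals here are linear. The gap to the nearest array divided by the range of the group was 0.918 for Slc16a11 in Gen-treated mice, where replicate 2 read 18940 and the others 28124 to 29134. It was 0.877 for Slc16a12 in controls, where replicate 4 read 217 and the others 349 to 373. It was 0.876 for Slc16a9 in Gen-treated mice, where replicate 4 read 4078 and the others 2645 to 2791. It was 0.834 for Slc2a9 in Gen-treated mice, where replicate 2 read 133 and the others 173 to 182.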

How the results depend on the processing

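Of 201 gene names at an adjusted p under 0.05, the number was 4837 with no filter on dim probes, 793 with no scaling, 362 with normexp background correction, 309 with an intensity trend and robust fit, 104 with low signals raised to a floor, 7 by the methods' t-test and 3 with the replicate block, and it lay between 0 and 194 with 1 array left out (0 without Gen replicate 3 or Gen replicate 4, 2 without control replicate 3, 17 without Gen replicate 1, 36 without Gen replicate 2, 53 without control replicate 4 and 118 without control replicate 2). With detection required on all 8 arrays 230 of 16920 gene names passed, and with quantile normalization 159 of 19791 did. Of the transporters, 0 passed that threshold in the analysis as reported and with any 1 array left out, and 7 did with no filter, 5 with no scaling (Slc2a3, Slc5a4b, Slc5a8, Slc5a11 and Slc16a12), 2 with detection required on all 8 arrays (Slc2a3 and Slc16a10), and 1 each with normexp (Slc2a3) and with the trend (Slc2a3). The 5 transporters at an unadjusted p under 0.01 became 2 by the methods' t-test (Slc2a3 and Slc16a10), 3 with the replicate block (these and Slc16a12), and 3 to 4 with 1 array left out, the 3 being without control replicate 2 or without Gen replicate 1. Slc5a11 and Slc5a4b left that group and Slc16a13 entered it with the floor, Slc5a4b left and Slc16a13 entered with normexp, Slc16a10 left and Slc5a8 entered with no scaling, Slc5a4b left with the mean of all tested probes and with detection required on all 8 arrays, and Slc2a1 entered with the trend. Of the fuel genes, 0 passed the adjusted threshold, against 6 with no filter, 2 with normexp, and 1 each with no scaling and with the trend. The 9 fuel genes at an unadjusted p under 0.01 became 1 with no scaling, 3 with the replicate block, and 4 to 8 with 1 array left out (4 without control replicate 3 and 5 without control replicate 2 or Gen replicate 4). The cause of these changes was not tested.

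Same-numbered control and Gen arrays did not deviate together (correlations −0.0774, 0.0404, −0.0307 and −0.131). These values show no pairing by replicate number and cannot exclude one. The study compared Gen-treated mice with control littermates, and the sources used here did not state which arrays came from littermates. The median log2 fold change of all gene names was 0.03 and moved to 0.27 with no scaling. The split of gene names at an unadjusted p under 0.01 was 55.7% higher in Gen-treated mice, and 15.2% with no filter, 89.6% with no scaling, 42.4% with normexp, and 71.2% without control replicate 4.

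With no scaling the log2 fold change became 0.11 for Hk1, 0.074 for Ldhb, 0.21 for Slc16a4, 0.22 for Slc16a8, 0.022 for Slc2a10, 0.066 for Slc2a13 and 0.20 for Slc2a5. With normexp it became −0.0081 for Bsg, −0.10 for Ldha, 0.020 for Slc2a5, −0.0059 for Slc2a8, −0.11 for Slc2a9, −0.12 for Slc5a2 and −0.12 for Slc5a3. With the mean of all tested probes it became −0.24 for Ldha, 0.063 for Slc16a6, −0.0028 for Slc2a8 and −0.034 for Slc2a9. With quantile normalization it became −0.10 for Slc5a2 and −0.0035 for Slc5a3, and with the floor −0.041 for Slc5a2. With 1 array left out the value crossed 0, from −0.037 to 0.12 for Hk2, −0.12 to 0.10 for Ldha, −0.0029 to 0.27 for Slc16a11, −0.16 to 0.19 for Slc16a3, −0.17 to 0.11 for Slc16a4, −0.14 to 0.093 for Slc16a8, −0.16 to 0.12 for Slc2a5, −0.024 to 0.063 for Slc2a8, −0.025 to 0.20 for Slc2a9, −0.13 to 0.14 for Slc5a2 and −0.033 to 0.18 for Slc5a3. No sign changed under these alternatives for Slc2a1, Slc2a3, Slc2a4, Slc5a11, Slc16a10, Slc16a12, Slc16a13 or Slc5a4b. The Slc5a4b probe was not tested with any 1 Gen array left out or with detection required on all 8, and another of its probes stood in without Gen replicate 4 (1.08, adjusted p = 0.60). The mean of its tested probes gave 0.84 (adjusted p = 0.44), and the bound of Slc5a4b lay between 1.16 and 1.70 with 1 array left out and was 1.67 with no scaling and 1.11 with normexp.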
